A study of Mus musculus with 65 samples.

Results

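Genes of Polycomb repression and DNA methylation were followed in single aged mouse stem cells: the Polycomb repressive complex 2 (PRC2) genes Ezh1, Ezh2, Eed and Suz12, the Polycomb repressive complex 1 (PRC1) genes Cbx8 and Phc1, the DNA methyltransferase gene Dnmt3a and the methylcytosine dioxygenase genes Tet1 and Tet3. They were chosen by name, as chromatin enzymes and their partners, and not by a rule on measured values, though earlier results of these data were known. All 9 are among the 18036 gene identifiers of the table. The study set label-retaining (aLR-HSC, aLR for short) against non-label-retaining (anLR-HSC, anLR for short) long-term hematopoietic stem cells, 37 and 28 cells from 4 biological repeats. Both kinds of cell came from the femur and tibia marrow of mice older than 20 months that carried a tetracycline transactivator (tTA) driven by SCL and a histone H2B-GFP reporter, so label-retaining cells are those still GFP positive and non-label-retaining cells those without GFP. All were sorted as CD150+ CD48- Flk2- cells, CD34- or low, of the Lin- Sca-1+ Kit+ marrow fraction, and were kept overnight at low oxygen without growth factors before SMART-Seq v4 cDNA synthesis. The label reports divisions only in cells in which SCL drives the transactivator.

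PRC2 places methyl groups on lysine 27 of histone H3, a mark of silenced genes. EZH1 or EZH2 is its catalytic subunit, and EED and SUZ12 are needed for its activity. PRC1 binds that mark through CBX proteins such as CBX8, ubiquitinates histone H2A, and holds Polyhomeotic subunits such as PHC1. DNMT3A adds new methyl groups to cytosine, and TET1 and TET3 oxidise methylcytosine, which leads to its removal. In hematopoiesis EZH2 is the form of dividing cells while EZH1 is also made in resting ones, and DNMT3A is needed for stem cells to differentiate.

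The promoters of the catalytic pair are shown because the comparison of Ezh1 with Ezh2 is the one drawn most closely here. Each is the 250 bases before a transcript start that RefSeq gives (GRCm38.p6). For Ezh2 that start is not the outermost one, and 240 of the 250 bases lie inside the span of the gene. They are read 5′ to 3′ on the strand of the gene, with CG dinucleotides, the substrate of DNA methylation, in capitals.
Ezh1, chr11:101226464-101226713, minus strand: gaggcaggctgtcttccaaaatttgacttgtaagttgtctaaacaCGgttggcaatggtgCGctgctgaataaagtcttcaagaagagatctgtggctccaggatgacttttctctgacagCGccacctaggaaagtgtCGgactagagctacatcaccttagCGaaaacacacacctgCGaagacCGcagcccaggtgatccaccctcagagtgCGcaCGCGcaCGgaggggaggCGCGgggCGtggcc
Ezh2, chr6:47595031-47595280, minus strand: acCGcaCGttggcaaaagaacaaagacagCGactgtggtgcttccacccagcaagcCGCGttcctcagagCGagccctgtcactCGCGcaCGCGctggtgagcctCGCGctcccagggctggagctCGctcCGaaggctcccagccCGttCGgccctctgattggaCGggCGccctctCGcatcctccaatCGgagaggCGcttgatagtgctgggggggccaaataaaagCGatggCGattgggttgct
The Ezh1 window held 14 CG dinucleotides and the Ezh2 window 23, against a median of 6 over 32851 RefSeq windows of the same length. The other members had between 8 (Phc1) and 40 (Dnmt3a, which has 3 windows). The windows of Dnmt3a and Tet3 lie wholly inside the spans of their genes, as do 145 bases of the Tet1 window. E2F-type motifs (TTTGGCGC, TTTCCCGC, TTTGCCGC or TTTCGCGC on either strand), the motif class of cell cycle factors, stood in the window of Suz12 and in none of the other members' windows, and in 1.86% of all windows. No methylation was measured, so these letters are context and not a result of the comparison.

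The values were taken as estimated read counts per gene and cell that were not scaled between cells, although the submitters call them normalized. The total of an aLR cell lay between 27954 and 20516069 (median 264894) and that of an anLR cell between 86 and 661078 (median 118056), over the part of the genome in the table. aLR cells also had counts for more genes, 1924 ± 446 per cell against 1090 ± 277 in anLR cells (mean ± SD over repeats, n = 4 each). Of the stem cell markers, Hlf had counts in 31 aLR and 12 anLR cells and Gata2 in 24 and 10, whereas Slamf1, which encodes the sorted protein CD150, had none in either group. Of the neutrophil genes Elane, Mpo and Ltf were at 0 in all 65 cells, and Camp and Ngp had counts in 1 aLR cell each. Lyz2, of monocytes, had counts in 3 aLR and 0 anLR cells, the B cell gene Cd79a in 8 and 3, Itga2b, of megakaryocytes, in 11 and 2, and the endothelial gene Pecam1 in 20 and 6. The 4 B cell genes measured took up to 0.232% of the counts of an aLR repeat and up to 0.00103% of an anLR one. The haemoglobin gene Hba-a1 had counts in 36 aLR and 24 anLR cells, and the 3 erythroid genes measured took 0.0039 to 7.34% of the counts of an aLR repeat and 0.239 to 2.39% of an anLR one. Their part in the results was not tested.

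Dnmt3a was the member found in most cells, and Ezh1 and Suz12 followed. A gene is called detected in a cell when it has a count above 0. Dnmt3a was detected in 22 of 37 aLR and 12 of 28 anLR cells. Ezh1 was detected in 15 and 3, Suz12 in 15 and 5, Eed in 11 and 5, Tet3 in 7 and 4, Phc1 in 4 and 1, Ezh2 in 4 and 0, and Tet1 in 2 and 1. Cbx8 was listed at 0 in every cell, which allows a share of detecting cells of up to 8.11% in aLR and 10.7% in anLR cells (limit from a count of 0, sampling of cells only). Every detected member was thus found in a larger share of aLR cells. That direction was the rule in the whole table: the mean share over repeats was higher in aLR cells for 93.4% of the 3489 genes tested, with a median difference of 19.4 percentage points. After thinning to 10000 counts, which evens out total counts but not the number of genes captured and leaves out 4 shallow anLR cells, it was higher for 75.5% of them. The direction of the members is thus that of the table.

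**Figure D1:**
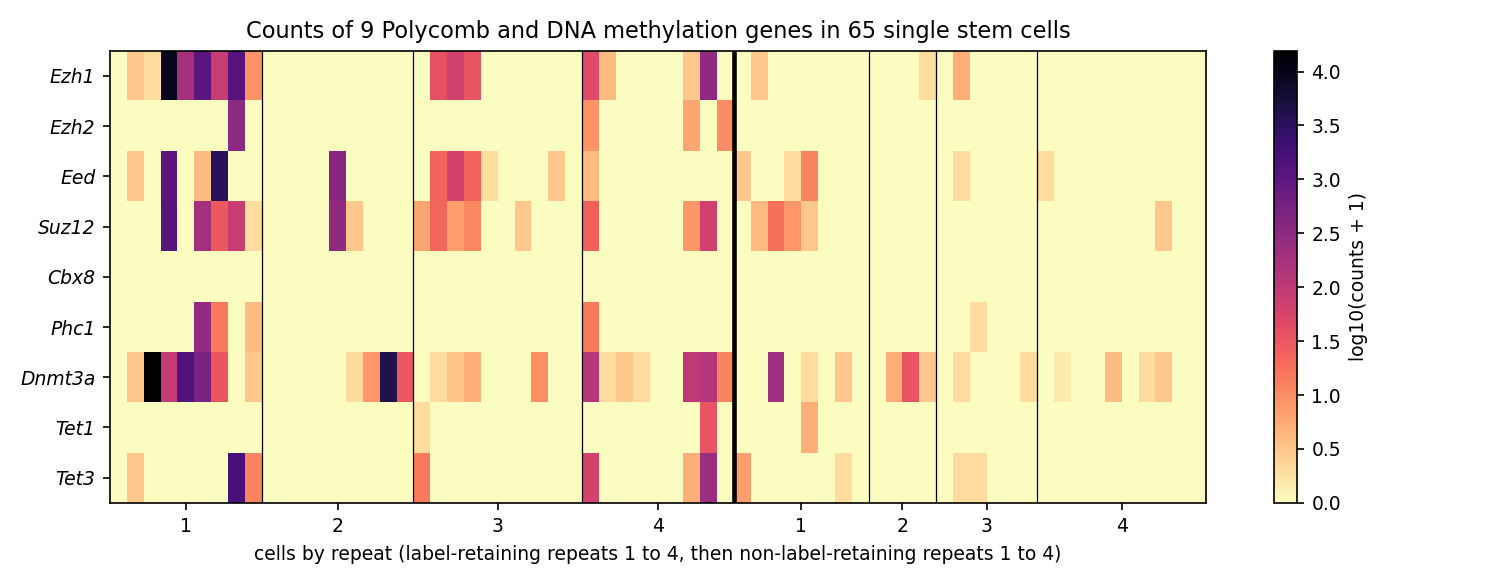
Counts of the 9 members in each of the 65 cells, drawn as a colour scale of log10(count + 1), with label-retaining (aLR) cells to the left of non-label-retaining (anLR) cells and cells ordered by repeat. The rows of Dnmt3a, Suz12 and Ezh1 were the fullest, with 34, 20 and 18 cells, and the row of Cbx8 was empty.

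Ezh1 (identifier 14055; chromosome 11, 101191115 to 101226463) reached 10 counts in 10 aLR cells and in no anLR cell. In aLR repeat 1 it was detected in 8 of 9 cells, with 1, 2, 8, 82, 185, 1100, 1182 and 9350 counts. In aLR repeat 3 it was detected in 3 of 10 cells, with 33, 35 and 67 counts, and in repeat 4 in 4 of 9, with 2, 3, 44.6 and 305 counts. No cell of aLR repeat 2 had a count, and 0 of 9 allows a share of up to 33.3%. The anLR cells with Ezh1 were 3, 1 each in repeats 1, 2 and 3, with 2, 1 and 4 counts. All counts of 10 or more were thus in aLR repeats 1, 3 and 4, and the groups overlapped by repeat because aLR repeat 2 was empty. A limit in counts favours cells with high totals, which reached 20516069 in aLR and 661078 in anLR cells. Scaled to the total of each cell (CPM), cells with Ezh1 had medians of 74.99 in aLR and 36.65 in anLR. The highest were 2852 CPM in aLR and 681 in anLR, the second from a cell with 2 of 2938 counts.

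By repeat, Ezh1 was detected in 40.8 ± 37.0% of aLR and 13.5 ± 10.4% of anLR cells (SD, n = 4 repeats each), a difference of 27.3 points that held in 3 of 4 repeats. The difference did not pass the test (two-sided exact permutation p = 0.2, adjusted p = 0.495 by Benjamini-Hochberg over 3489 genes). Leaving out aLR repeat 2 raised the difference to 40.9 points with an exact permutation p of 0.0286, the smallest that 3 against 4 repeats allow. Leaving out aLR repeat 1 lowered it to 11.3 points (exact permutation p = 0.371), and leaving out repeat 1 of both groups to 10.9 points (exact permutation p = 0.5, smallest possible 0.1). The size of the difference thus rests on aLR repeats 1 and 2. For background, 8.48% of the 3489 genes had a higher share in aLR cells at an unadjusted exact p under 0.05, 0% had a lower one, and 0 passed after adjustment (smallest adjusted p 0.337).

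Detection of Ezh1 moved with the number of genes found in the cell. aLR cells with Ezh1 had a median of 2721 detected genes and those without it 1380.5. Among cells with 2000 or more detected genes, a class chosen after the values were seen, 14 of 18 aLR and 0 of 2 anLR cells had Ezh1. Among cells with at least 1000 but under 2000 genes, 1 of 11 aLR and 2 of 11 anLR cells had it. Of those 11 aLR cells 6 came from repeat 2, which had no Ezh1 at all, and of the 11 anLR cells 9 came from repeats 1 and 3, so number of genes and repeat cannot be told apart in this class. Cells with under 1000 genes gave 0 of 8 and 1 of 15. Hence 14 of the 15 aLR cells with Ezh1 lay in the class richest in genes, which holds only 2 anLR cells to set beside them. What part the number of genes has in the difference was not tested. When each cell was thinned to 10000 counts by calculation, without the 4 anLR cells that had fewer, the expected share was 23.7% in aLR and 3.61% in anLR cells (exact permutation p = 0.171).

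Ezh2 (identifier 14056; chromosome 6, 47530274 to 47595270), the other catalytic subunit, was scarce in both groups. It had 328.5 counts in 1 cell of aLR repeat 1 and 5, 8 and 9 counts in 3 cells of repeat 4. No cell of aLR repeats 2 and 3 and none of the 28 anLR cells had a count, which allows a share of up to 10.7% in the anLR cells. By repeat this gave 11.1 ± 15.7% of aLR cells and 0% of anLR cells (SD, n = 4 each, exact permutation p = 0.429). That p is the smallest possible for a gene found in only 2 repeats, so the test could not pass. All 4 cells with Ezh2 had 2000 or more detected genes.

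Most cells had neither catalytic gene, and where 1 was found it was mostly Ezh1. Of 37 aLR cells 12 had Ezh1 only, 3 had both, 1 had Ezh2 only and 21 had neither, and of 28 anLR cells 3 had Ezh1 only and 25 neither. The share of cells with Ezh1 exceeded that with Ezh2 by 77.8, 0, 30.0 and 11.1 points in aLR repeats 1 to 4 (mean 29.7 ± 34.3, SD, n = 4). The same gap was 12.5, 25, 16.7 and 0 points in the anLR repeats (mean 13.5 ± 10.4, SD, n = 4). In no repeat of either group was Ezh2 found in more cells than Ezh1. In each group 3 of 4 repeats had a gap above 0, for which exact sign flips give p = 0.25, the smallest possible when 1 of the 4 gaps is 0. The gap was 16.2 points larger in aLR than in anLR cells, a difference within the spread of the repeats (exact permutation p = 0.543). It was -0.185 points without repeat 1 of both groups.

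**Figure D2:**
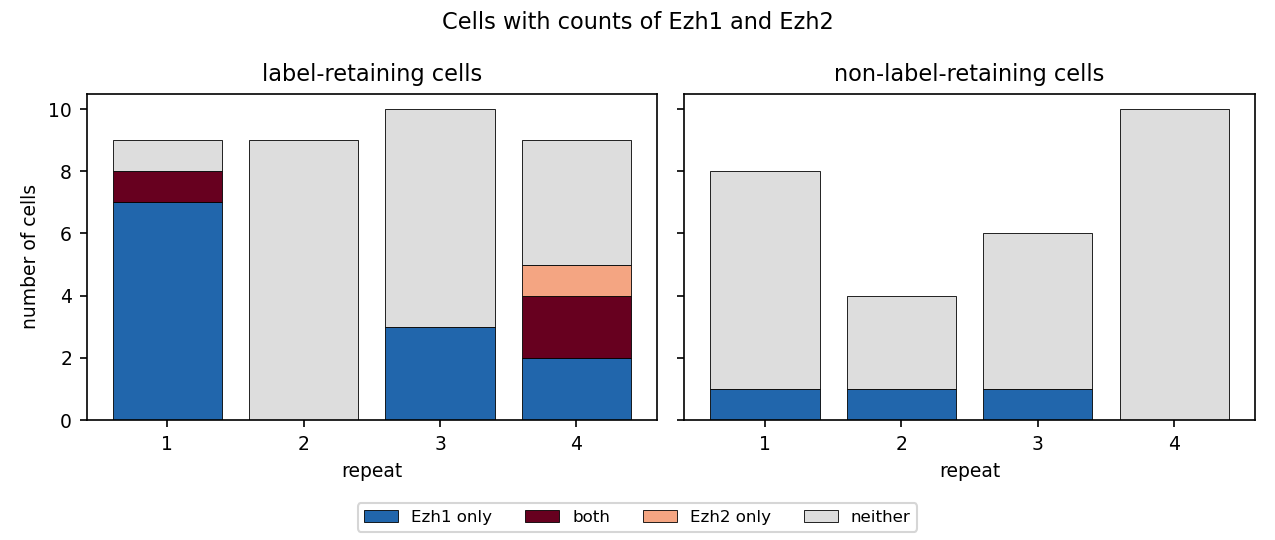
Number of cells with counts of Ezh1 only, of both genes, of Ezh2 only and of neither, stacked by repeat, for label-retaining (aLR) cells on the left and non-label-retaining (anLR) cells on the right. Cells with Ezh1 only made up most of aLR repeat 1, repeat 2 had none, and the anLR cells had at most 1 per repeat.

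Per length of transcript Ezh1 and Ezh2 can be set side by side as levels. Over the summed counts of all aLR cells Ezh1 stood at 33.1 and Ezh2 at 1.04 CPM (the count scaled to the total of the sum) per kilobase of exon, which makes Ezh1 96.9% of the pair. By repeat the levels of Ezh1 and Ezh2 were 47.4 and 1.46, 0 and 0, 5.92 and 0, and 28.4 and 1.96 CPM per kilobase in aLR repeats 1 to 4. In the anLR sum Ezh1 stood at 0.194 CPM per kilobase, from 7 counts, and Ezh2 at 0. Weighting each cell equally, Ezh1 stood at 20.2 ± 30.4 CPM per kilobase in aLR and 3.25 ± 5.49 in anLR cells (SD, n = 4 repeats), the second mostly from 1 shallow cell of anLR repeat 1 with 2 counts, and Ezh2 at 1.45 ± 1.74 in aLR cells and 0 in anLR cells. The distance between the groups thus depends on the weighting. The order of the pair was the same in each sum that had a count, but 75.4% of the Ezh1 counts of aLR cells came from 1 cell of repeat 1.

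Eed (identifier 13626; chromosome 7, 89954654 to 89980976), which reads the H3K27 mark within PRC2, was found in 4, 1, 5 and 1 cells of aLR repeats 1 to 4 and in 3, 0, 1 and 1 cells of the anLR repeats. Its counts ran from 1 to 3270 over the 11 aLR cells (median 22) and from 1 to 11 over the 5 anLR cells (median 1). Scaled to the total of each cell, the medians were 35.4 CPM in aLR and 59.0 in anLR cells. The share was 29.2 ± 21.0% in aLR and 16.0 ± 15.9% in anLR cells, higher in 4 of 4 repeats (exact permutation p = 0.257, adjusted p = 0.525, n = 4 each). Over the table, 29.1% of the 3489 genes had a higher share in aLR cells in all 4 repeats, and the groups' shares overlapped for Eed.

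Suz12 (identifier 52615; chromosome 11, 79993106 to 80034123), the scaffold of PRC2, had the smallest SD over aLR repeats, in percentage points, of the members found in 10 or more cells. It was found in 5, 2, 5 and 3 cells of aLR repeats 1 to 4 and in 4, 0, 0 and 1 cells of the anLR repeats. Its highest count was 1198 in an aLR cell and 17 in an anLR cell, and 9 aLR and 1 anLR cells reached 10 counts. Scaled to the total of each cell, the order turned: cells with Suz12 had medians of 38.79 CPM in aLR and 49.96 in anLR. The highest were 474 CPM in aLR and 1021 in anLR, the second from a cell with 3 of 2938 counts. The share was 40.3 ± 15.3% in aLR and 15.0 ± 23.8% in anLR cells, higher in 4 of 4 repeats (exact permutation p = 0.143, adjusted p = 0.439, n = 4 each). anLR repeat 1, with 4 of 8 cells, overlapped the aLR repeats, and the other 3 lay below all of them. Thinned to 10000 counts, the expected share was 17.9% in aLR and 5.95% in anLR cells (exact permutation p = 0.114).

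PRC2 needs several subunits in 1 cell. Counts of Ezh1, Eed and Suz12 together were found in 7 aLR and 0 anLR cells. The 7 were 3 cells of repeat 1, 3 of repeat 3 and 1 of repeat 4, and all had 2000 or more detected genes. That class holds 18 aLR but only 2 anLR cells, and 0 of 28 allows a share of up to 10.7%. Eed with Suz12 was found in 8 and 2 cells, and at least 1 of the 4 PRC2 members in 22 and 9. Of the 15 aLR cells with Ezh1, 11 had Suz12 and 8 had Eed. These are counts of transcripts seen, and a cell without one may hold it below the depth of its library.

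Of the PRC1 genes, Cbx8 (identifier 30951; chromosome 11, 119036303 to 119040913) was not detected. Phc1 (identifier 13619; chromosome 6, 122317731 to 122340227) had 286, 14 and 3 counts in 3 cells of aLR repeat 1, 14 counts in 1 cell of repeat 4, and 1 count in 1 cell of anLR repeat 3. The share by repeat was 11.1 ± 15.7% in aLR and 4.17 ± 8.33% in anLR cells (exact permutation p = 0.714, n = 4 each), and its direction turned without aLR repeat 1. All 4 aLR cells with Phc1 also had Ezh1, Suz12 and Dnmt3a.

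Dnmt3a (identifier 13435; chromosome 12, 3801559 to 3914443) was the one member found in every repeat of both groups. It was detected in 7, 4, 4 and 7 cells of aLR repeats 1 to 4 and in 3, 3, 2 and 4 cells of the anLR repeats. The highest counts by aLR repeat were 15590, 4299, 8.83 and 126.8, against 217, 33.3, 1 and 3 in the anLR repeats. aLR repeat 3 thus had Dnmt3a only at low counts, and 70.1% of the aLR counts came from the deepest cell of repeat 1. The share was 60.0 ± 20.6% in aLR and 46.5 ± 19.2% in anLR cells, higher in 3 of 4 repeats (exact permutation p = 0.2, adjusted p = 0.495, n = 4 each). anLR repeat 2 went the other way, with 3 of 4 cells. Thinned to 10000 counts, the shares were 26.8% in aLR and 24.9% in anLR cells (exact permutation p = 0.914), a difference of 1.85 points.

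The dioxygenase genes that were measured were rare, and Tet2 was not among them. Tet3 (identifier 194388; chromosome 6, 83362373 to 83457208) had 2, 11 and 1632 counts in 3 cells of aLR repeat 1, 14 in 1 cell of repeat 3, and 4, 60 and 221 in 3 cells of repeat 4. In anLR cells it had 1 and 6 counts in repeat 1 and 1 count in each of 2 cells of repeat 3. Scaled to the total of each cell, cells with Tet3 had medians of 200 CPM in aLR and 5.97 in anLR. The highest were 688 and 316 CPM. The shares were 19.2 ± 16.9% in aLR and 14.6 ± 17.2% in anLR cells (exact permutation p = 0.743, adjusted p = 0.841, n = 4 each), and 5 aLR cells but no anLR cell reached 10 counts. Tet1 (identifier 52463; chromosome 10, 62804570 to 62887469) had 1 count in a cell of aLR repeat 3, 32.5 counts in a cell of repeat 4 and 4 counts in a cell of anLR repeat 1 (exact permutation p = 1, n = 4 repeats each). The directions of Tet1 and Tet3 turned when single repeats were left out. Dnmt3a was found together with Tet1 or Tet3 in 5 aLR and 3 anLR cells.

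**Figure D3:**
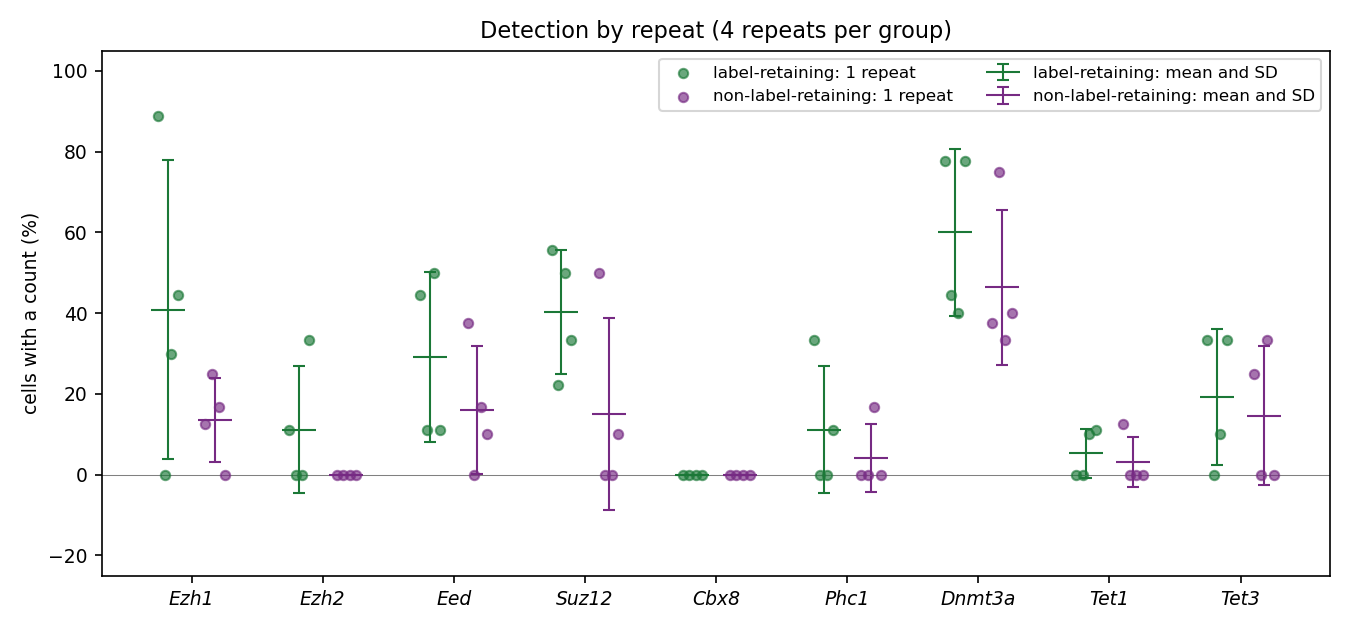
Share of cells with a count of each member, in percent, with 1 point per repeat and the mean ± SD over 4 repeats, label-retaining (aLR) to the left of non-label-retaining (anLR) cells. The repeats of the groups overlapped for all 8 detected members. Ezh1 ran from 0 to 88.9% in aLR cells and Suz12 from 22.2 to 55.6%.

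How many members a cell showed followed how many genes it showed. aLR cells had 2.17 ± 1.12 of the 9 members (3.44, 0.778, 1.90 and 2.56 in repeats 1 to 4) and anLR cells 1.13 ± 0.477 (1.75, 1.00, 1.17 and 0.600; mean ± SD over repeats). At least 4 members were found in 12 aLR and 2 anLR cells, and none in 9 and 11. The fullest cell, of aLR repeat 4, had 7 members and also the most genes of all cells, 3640. Spearman's rho between members and detected genes was 0.75 over the 37 aLR and 0.63 over the 28 anLR cells, and between members and total counts 0.30 and 0.02. Among cells with at least 1000 but under 2000 genes, Eed was seen in 2 of 11 aLR and 4 of 11 anLR cells, Suz12 in 3 and 3, Dnmt3a in 4 and 5, and Tet3 in 1 and 4. This class mixes repeats unevenly, as given above for Ezh1. With 2000 or more genes, Eed was seen in 8 of 18 aLR and 0 of 2 anLR cells, Suz12 in 11 and 1, Dnmt3a in 16 and 2, and Tet3 in 6 and 0. These are descriptions over cells that share libraries and repeats. A lower RNA content, a poorer capture and a lack of transcription cannot be told apart in such counts.

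**Figure D4:**
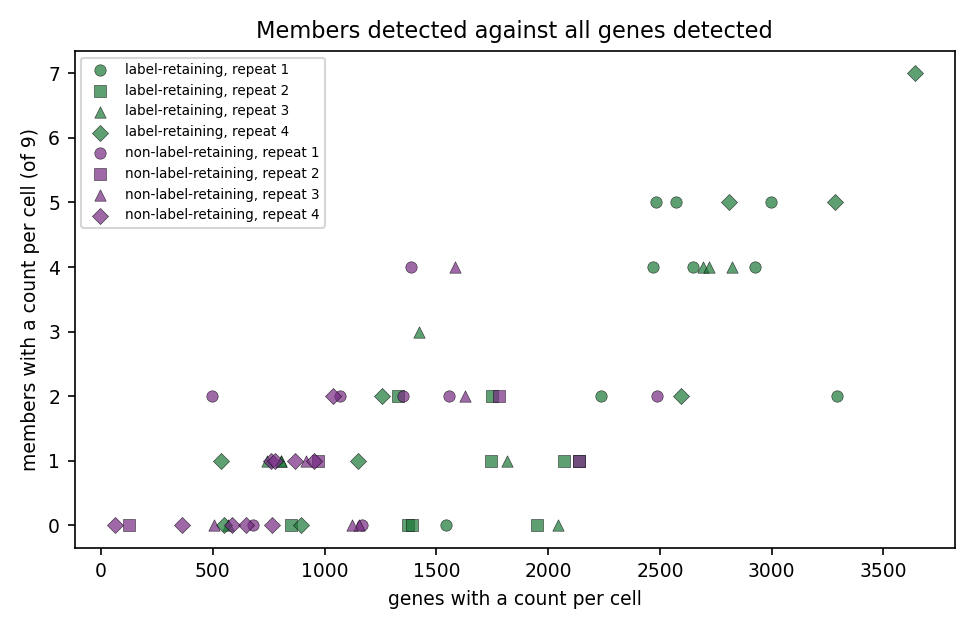
Number of members with a count (of 9) against the number of all genes with a count, 1 point per cell, aLR and anLR cells in different colours and repeats in different symbols. All 12 aLR cells with 4 or more members lay above 2000 genes and both such anLR cells below. In all, 18 aLR and 2 anLR cells had 2000 genes or more.

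Levels of the summed repeats were tested for the 5 members with enough counts, on CPM scaled with TMM factors, which even out differences in RNA composition. Ezh1 stood at 182, 0, 32.1 and 157 CPM in aLR repeats 1 to 4, against 1.34, 3.94, 7.66 and 0 CPM in anLR repeats. The groups overlapped through aLR repeat 2, and the log2 fold change of 4.85 ± 2.63 (SE) did not pass the threshold (edgeR quasi-likelihood p = 0.0654, adjusted p = 0.474 over 2786 genes). Tet3 stood at 25.1, 0, 3.32 and 126 CPM in aLR and 4.67, 0, 3.83 and 0 CPM in anLR repeats, a log2 fold change of 4.04 ± 2.54 (adjusted p = 0.509). Eed stood at 66.8, 19.6, 25.6 and 1.33 against 9.35, 0, 1.92 and 2.64 CPM in anLR repeats, a log2 fold change of 2.93 ± 2.39 (adjusted p = 0.570).

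Suz12 and Dnmt3a had smaller fold changes. Suz12 stood at 22.8, 16.4, 10.4 and 42.4 CPM in aLR and 19.4, 0, 0 and 5.27 CPM in anLR repeats, a log2 fold change of 1.84 ± 2.28 (adjusted p = 0.690) that was -0.39 when each cell was first rescaled to the same total. Dnmt3a stood at 268, 235, 3.80 and 161 CPM in aLR and 147, 153, 3.83 and 15.8 CPM in anLR repeats, a log2 fold change of 1.06 ± 2.03 (adjusted p = 0.786). Dnmt3a lay below 4 CPM in repeat 3 of both groups. Over the 2786 genes tested the log2 fold changes had a median of 1.15, and 65.5% were above 0. Relative to that median Ezh1 lay at 3.70, Tet3 at 2.89, Eed at 1.78, Suz12 at 0.68 and Dnmt3a at -0.09. With each cell first rescaled to the same total, the values relative to the median of 0.70 were 1.38 for Ezh1, 1.27 for Tet3, 1.29 for Eed, -1.10 for Suz12 and 0.35 for Dnmt3a, so the signs of Suz12 and Dnmt3a turned. The fold change of Tet3 rested on aLR repeat 4, without which it was 1.44. The test called 0% of genes, while at an unadjusted p under 0.05 the share called was 6.46% higher and 4.38% lower, and 0 of the 5 members were among these. With repeats as a block the unadjusted calls were 212 higher and 9 lower, against 180 and 122 without it, and again 0 passed after adjustment.

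The wider machinery was read from 14 lists with 138 genes, of which 74 are in the table and 64 had a count. Among the genes not in the table, and so not surveyed, were Rbbp4, Ring1, Bmi1, Cbx7, Kdm6a, Dnmt1, Dnmt3b and Tet2. Of 42 tested for detection, 40 had a higher mean share in aLR cells and 0 passed after adjustment. The median difference was 19.1 points, against 19.4 for all genes. At an unadjusted exact p of 0.0286, the smallest possible, stood 2 of the 42 genes, picked out after their values were seen, against 8.48% of all genes tested, so such values were no more frequent in the lists. Hoxb3 was found in 15 aLR and 1 anLR cells. The Y-linked demethylase relative Uty was found in 12 and 0 (0 of 28 allows a share of up to 10.7%). The sample labels used here give no sex of the mice, so the part of sex in the Uty counts was not tested. In levels 38 were tested and 0 called, with 3 higher and 3 lower at an unadjusted p below 0.05 (6.46% and 4.38% of all genes), and a median log2 fold change of 2.00, against 1.15 for all genes.

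Among Polycomb partners, Rbbp7, a histone-binding subunit of PRC2, was found in 25 aLR and 12 anLR cells. Rnf2, the PRC1 ubiquitin ligase, was found in 12 and 2, the PRC2 cofactor Aebp2 in 11 and 3 and Jarid2 in 7 and 3. Asxl2, a partner of the H2A deubiquitinase BAP1, was found in 23 and 6 (exact permutation p = 0.0857, adjusted p = 0.392), and Kdm6b, which removes the H3K27 mark, in 31 and 20. None passed the test. By level Kdm6b went the other way, with a log2 fold change of -2.20 ± 2.18, lower in aLR cells in 4 of 4 repeats (edgeR adjusted p = 0.631).

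Of the other DNA methylation genes that were tested none passed. Mbd4, a glycosylase that repairs deaminated methylcytosine, was found in 31 aLR and 16 anLR cells (adjusted p = 0.392 after an exact permutation test), and Mbd2, a reader of methylated DNA, in 19 and 7 (adjusted p = 0.392). Tdg, which excises oxidised methylcytosine, was found in 14 and 1 (adjusted p = 0.377). Uhrf1, the partner of maintenance methylation, was found in 0 and 2 cells, and Dnmt3l had no count, so neither was tested. By level Mbd4 had a log2 fold change of -0.95 ± 2.05 (edgeR adjusted p = 0.813).

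Genes of opposing and neighbouring pathways were counted in the same way. The trithorax-group genes Kmt2b and Ash2l were found in 16 and 17 aLR and 4 and 3 anLR cells, and Cxxc1, which targets the COMPASS complex to CpG islands, in 9 and 11. Of SWI/SNF, the remodeller that opposes Polycomb, Smarcc1 was found in 18 and 3 cells, Smarcc2 in 26 and 16 and Brd9 in 16 and 7. The heterochromatin genes Cbx1 and Cbx3 were found in 26 and 27 aLR and 15 and 16 anLR cells, and the deacetylase gene Hdac9 in 15 and 5. Differences for Kmt2b, Ash2l and Smarcc1 reached an exact permutation p of 0.0571 (adjusted p = 0.377), each higher in 4 of 4 repeats. Levels went against detection for Brd9 and Smarcc2, with log2 fold changes of -5.73 ± 2.77 and -2.26 ± 2.11 (edgeR adjusted p = 0.433 and 0.610). They had the direction of detection for Cxxc1 (-9.72 ± 3.16) and Kmt2b (8.94 ± 3.15), each with an edgeR adjusted p of 0.326. Single repeats carried 3 of these values. Cxxc1 stood at 104411 CPM in anLR repeat 4, Brd9 at 11916 in anLR repeat 3 and Kmt2b at 4329 in aLR repeat 4. The highest other repeats stood at 116, 123 and 229 CPM in turn.

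Hox genes, the classic targets of Polycomb repression, were mostly found in a larger share of aLR cells, as were most genes, and none passed the test. Hoxb4 was found in 26 aLR and 5 anLR cells and Hoxa10 in 21 and 5 (exact permutation p = 0.0571, adjusted p = 0.377 each, n = 4 repeats). Hoxb1 was found in 21 aLR and 22 anLR cells, a mean share of 56.1% against 76.3%, lower in aLR cells in 4 of 4 repeats (exact permutation p = 0.2, adjusted p = 0.495, n = 4). All 21 Hox genes of the list were measured, 16 had a count and 6 were tested, and 5 of these had a higher share in aLR cells.

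**Figure D5:**
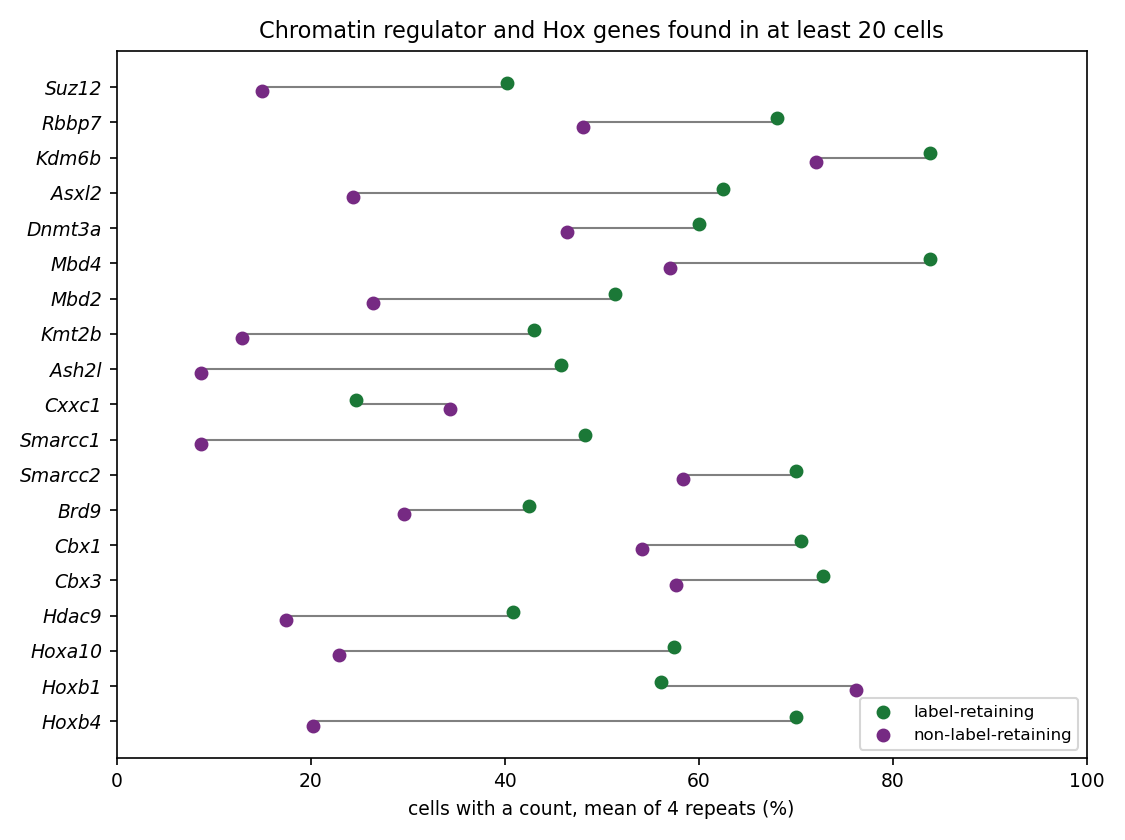
Mean share of cells with a count over 4 repeats, in percent, for the list genes found in at least 20 of the 65 cells, aLR and anLR cells as separate points. Hoxb1 and Cxxc1 were higher in anLR cells, and the other 17 genes were higher in aLR cells.

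The genes whose levels most resembled those of a member were listed by Spearman's rho of log2(CPM + 1) over the 61 cells with at least 10000 counts. For Ezh1 they were Tmem256 (0.76), Ctdnep1 (0.76) and Rela (0.74). For Suz12 they were Suco (0.71), Ylpm1 (0.71) and Usf2 (0.63), for Eed Wipi2 (0.73), Qrich1 (0.61) and Sash1 (0.60). For Dnmt3a they were Ptpn6 (0.75), Vav1 (0.71) and Rab3gap1 (0.69), and for Tet3 Ostm1 (0.76), Cdkn2aipnl (0.63) and Zkscan1 (0.61). Among members Ezh1 stood at 0.50 with Suz12 and 0.48 with Dnmt3a, and Eed at 0.46 with Suz12. Ezh1 stood at 0.69 with the plain number of genes detected per cell, and all these values come from the same libraries.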

How the data were processed

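The members and lists were chosen with earlier results of these data known. The authors deposited 1 table of estimated counts (expected counts) per gene and cell, and the build mm10 and the tool DESeq are named for it, without their role, per the submitters' processing notes. Aligner, counter and gene annotation: not given in the sources used here. Because the sums per cell differ widely and most low values are whole numbers, the values were taken as counts that were not scaled. The SMART-Seq v4 and Nextera XT kits, per the labels' protocols, mark neither strand nor molecule, so PCR copies count as reads and intervals or limits cover counting error only. The transcripts that overlap Eed, Dnmt3a and Tet3 and are in the table had no counts, and those not in the table are not analysed here.

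Identifiers were matched through RefSeq for GRCm38.p6 (16216 of 18036; the 1820 others held 0.13% of counts). Cells were not treated as replicates: shares of cells with a value above 0 were taken per repeat and compared by two-sided exact permutation of 4 against 4 (smallest p 0.0286), for the 3489 genes with a count in at least 10 cells, with Benjamini-Hochberg adjustment. Expected shares after thinning to 10000 counts were calculated exactly. Ezh2, Phc1 and Tet1, in under 10 cells, have no adjusted p. The design assumed scaled values for levels. As the values were taken as counts, sums per repeat, rounded to whole numbers, were instead tested with edgeR 4.0.16 (quasi-likelihood, TMM, robust, R 4.3.3). The 2786 genes tested were found in 10 or more cells, and their 8 means per cell averaged 10 or more. The anLR repeats 3 and 4 had TMM factors of 0.290 and 0.223, and the 6 other sums 1.44 to 2.04. CPM per kilobase used total counts and the union of GENCODE exons. Limma 3.58.1, DESeq2 1.42.0, other scalings, filters, detection limits and leaving out repeats were alternatives. The scripts were tested on simulated data with known changes.

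Genes named from the lists are the members with a count in at least 20 cells. Rnf2, Aebp2, Jarid2, Tdg, Uhrf1, Dnmt3l, Hoxb3 and Uty were added after their values were seen. Same-numbered repeats of the groups deviated together (correlations 0.554, 0.291, 0.170 and 0.157). The highest correlations of these aLR repeats with an anLR repeat of another number were -0.166, -0.049, 0.100 and 0.146. The pairing is thus read from the data, and only weakly for repeats 3 and 4. Whether a repeat is 1 mouse or a pool is not stated, so p-values measure the spread between repeats as sampled.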

Additional observations from a re-analysis of the deposited data

Results flagged for a closer look

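Over both groups 32 sets of 4 repeat values were examined. They held shares and levels of members, genes and members per cell and the Ezh1 to Ezh2 gap. In 3 sets 1 repeat lay far from the other 3, by its gap to the nearest value over the range. The usual chance rate of about 1 in 20 assumes continuous values, so it does not hold for shares of few cells. For Phc1 and Tet1 only 1 anLR repeat had a detecting cell, so gap and range were equal and that cell alone set the flag. Phc1 was detected in 16.7% of the cells of anLR repeat 3 and in none of the other anLR repeats, which is 1 cell with 1 count. Tet1 was detected in 12.5% of the cells of anLR repeat 1 and in none of the others, which is 1 cell with 4 counts. Dnmt3a was detected in 75% of the cells of anLR repeat 2, which is 3 of 4 cells, 1 of them with 33.3 counts, against 33.3 to 40% in the other anLR repeats.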

How the results depend on the processing

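For the detection shares 104 alternative values had enough repeats to reach the threshold: 98 kept direction and side, 1 passed it and 5 turned. Another 48 could not reach it by design (3 against 3 repeats, sign flips or no test), and of these 44 kept their direction and 4 turned. Shares of 0 limit the 104 further. Ezh2, found in only 2 repeats, could pass in no setting, so its side was fixed in advance. With 4 against 4 repeats Phc1 and Tet1, at 0 in most repeats, could not pass either. Ezh1 without aLR repeat 2 passed (40.9 points, unadjusted). Leaving out repeats moved the difference of Phc1 between -1.85 and 14.8 points, that of Tet1 between -0.833 and 7.04 and that of Tet3 between -5 and 13.9, and all 9 turns were among these. The difference between the groups in the Ezh1 to Ezh2 gap ran from -0.185 to 29.9 points when repeats were left out. Of 106 alternative values for the 5 levels, 1 turned: Suz12 at -0.39 with each cell rescaled, the cause of which was not tested. Sizes moved more than signs: the log2 fold change of Ezh1 was 2.08 with each cell rescaled and 1.87 by limma, and that of Tet3 was 1.97, 0.85 and, without repeat 4 of both groups, 1.03. DESeq2 called 14 genes, 8 higher and 6 lower, where edgeR, limma and the other settings called 0. In the fit with the replicate block Ezh1 had a log2 fold change of 3.98 (adjusted p = 0.628) and the number of calls by level stayed at 0. For detection the paired test, exact sign flips, cannot go below p = 0.125, the value of Eed and Suz12, and so could make no call. Leaving out the deepest cell, chosen after seeing the data, put Dnmt3a at a log2 fold change of 0.56 and turned no member. Depth differed between cells, and 4 anLR cells had under 10000 counts. The part of depth in detection was not tested.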
